A study of Homo sapiens with 4 samples.

Results

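The regions described here are weak CTCF peaks that were listed after aclarubicin and not after daunorubicin. They come from chromatin immunoprecipitation followed by sequencing (ChIP-seq) of CTCF in K562, an established human erythroleukaemia cell line. The drugs, aclarubicin in one group and daunorubicin in the other, were given at 10 µM over 4 hours. Each group has 2 libraries, which the titles name as biological replicates. All 4 libraries are of treated cells, so every value sets one drug against the other, and no untreated library was analysed here. Peak intervals of the 4 lists were merged where they shared at least 1 bp on chromosomes 1 to 22 and X, which gave 13959 regions. Of these, 8823 had a peak in both aclarubicin lists, and 3326 of them had none in either daunorubicin list (23.8% of all merged regions and 37.7% of those called in both aclarubicin lists). A region was called weak when its fold over background, ranked as a percentile within each aclarubicin list, averaged below 50 over the 2 lists. This left 2258 weak aclarubicin-only regions, called members below, which were 62.1% of the 3634 weak regions called in both aclarubicin lists. The calls of all 4 lists and the aclarubicin folds chose the members, so their counts, folds and fragment numbers are given as descriptions, with no test.

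CTCF is a zinc-finger protein that binds a long, conserved DNA motif, marks insulators and, with cohesin, holds the anchors of many chromatin loops. Its sites range from constitutive ones, occupied in most cell types, to weaker ones that vary between cells and conditions. Aclarubicin and daunorubicin are anthracyclines, drugs that slide between DNA base pairs and can displace histones. Daunorubicin also traps topoisomerase II on cut DNA, whereas aclarubicin acts without producing such breaks. The motif, the sequence and the genes at the members' positions were not analysed here. Positions are those of the files, in GRCh37 per the submitters' processing notes.

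The lists differed in length, which bears on any class defined by the lack of a call. They held 10633 and 10711 peaks for aclarubicin and 5886 and 6638 peaks for daunorubicin. The files give no read totals, but each peak's fold and p-value fix the number of fragments over its summit and the background number expected there, under an assumed Poisson formula. The lowest background of a list, called its floor, served as the scale of its coverage. With aclarubicin replicate 1 set to 1, the floor was 1.08 in aclarubicin replicate 2, 0.960 in daunorubicin replicate 1 and 0.787 in daunorubicin replicate 2. The number of members rests on the calls of each library. Without aclarubicin replicate 1 it was 3627 and without aclarubicin replicate 2 it was 3644, since 1 list then defined the class. With each list shortened to its 5886 peaks of highest −log10 p, it was 835, or 34.6% of the regions that were weak in those shortened lists. Percentiles were ranked anew in the shortened lists, so a region that is weak there need not be weak in the full lists. How many of the 835 were among the 2258 members was not counted. In the full lists, too, the share without a daunorubicin peak was lower at higher rank, at 37.7% between percentiles 50 and 60. The lower count therefore does not show the part of list length alone.

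Members made up a larger share of the regions towards the weak end of the aclarubicin lists. Between percentiles 0 and 10, 316 of 405 regions called in both aclarubicin lists had no daunorubicin peak (78.0%, 95% Wilson interval 73.7% to 81.8%). The share was 64.2% between 20 and 30 (60.8% to 67.4%) and 52.4% between 40 and 50 (49.2% to 55.6%). Above the threshold it went on falling, to 37.7% between 50 and 60 and 3.96% between 90 and 100. Of the steps between neighbouring bins, the one from 52.4% to 37.7% at the threshold was the largest. These intervals treat regions as independent and cover counting error only.

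**Figure D1:**
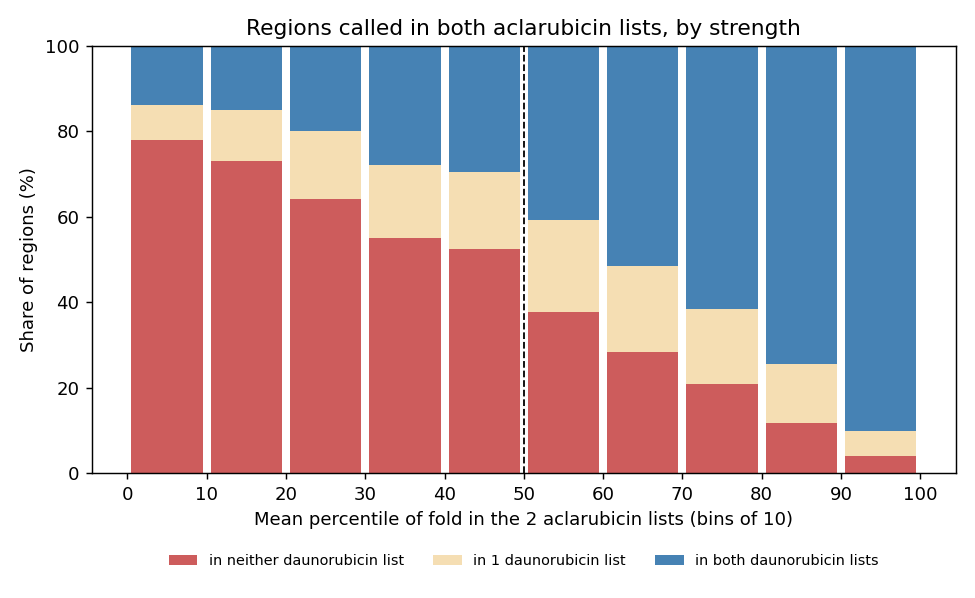
Share of the regions called in both aclarubicin lists that were called in neither, 1 or both daunorubicin lists (y axis, percent), by bins of 10 in the mean percentile of fold (x axis); the dashed line marks the threshold of 50. The members are the red parts left of the line, which fall from 78.0% to 52.4% of their bins.

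The folds of the members were low but spread widely, and they were close in both replicates. In aclarubicin replicate 1 the fold ran from 1.91 to 9.88 with a median of 5.49, and in replicate 2 from 1.80 to 10.0 with a median of 5.45. The medians over all peaks of these lists were 7.53 and 7.47. Most members were well past the lists' own threshold. In both lists, 1418 members (62.8%) had a −log10 q of at least 10, where the lowest listed value was 2.04 in replicate 1 and 2.02 in replicate 2. The median −log10 q of the members was 13.7 and 14.5. At the weak extreme, 16 members lay below a −log10 q of 5 in both lists. The label of weak peaks describes the members by their ratio to background, and 82.8% of them also averaged below percentile 50 by −log10 p. Most were nevertheless far above the lowest listed −log10 q.

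The members and other regions nearest to the threshold were as follows. The member with the highest mean percentile lay on chromosome 5, 33588899 to 33589198, with folds of 6.96 and 8.04 and a mean percentile of 49.99. Next to it were members on chromosome 14, 78173582 to 78173991, with folds of 6.70 and 8.33, and on chromosome 5, 61756281 to 61756646, with folds of 8.01 and 7.02. Just outside lay chromosome 5, 115697042 to 115697399, with folds of 7.74 and 7.28 and a mean percentile of 50.02. The regions after it were chromosome 7, 138701814 to 138702172, with folds of 7.0 and 8.01, and chromosome 12, 5854466 to 5854825, with folds of 8.06 and 6.99. These 6 regions were picked for mean percentiles near 50, which fixes folds of similar size on both sides.

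The rule required a call in both aclarubicin lists and a low mean of both percentiles, so the spread of the members between replicates is a description and no independent measure of repeatability. In both lists, 1975 members ranked below 50, while 138 ranked at or above 50 in replicate 1 and 145 in replicate 2. The median difference in percentile between the replicates was 7.15 points, against 7.58 points in the 825 weak regions called in all 4 lists, and 90% of members differed by at most 20.8 points. The largest differences were at chromosome 19, 46552929 to 46553282 (percentiles 18.5 and 73.4), chromosome 4, 113153110 to 113153625 (68.3 and 19.6), and chromosome 5, 35617475 to 35617962 (21.9 and 70.4). These 3 had between 13 and 30 fragments over the summit. Across the members, Spearman's rho between replicates was 0.689 for fold, 0.886 for fragments and 0.986 for background. Members are not independent replicates, and neighbouring ones share their background.

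A low fold arose in members with very different numbers of fragments. Over the summit, the members had between 10 and 482 fragments in replicate 1 (median 37) and between 12 and 484 in replicate 2 (median 39), where the list medians were 44 and 47. In both replicates, 615 members (27.2%) had more fragments than the median peak of the list. This share was not computed for the other classes. The weak regions called in all 4 lists had medians of 50 and 55 fragments. The members' background, as a multiple of the floor, had a median of 3.61, against 4.82 in the weak regions called in all 4 lists. The median was 3.45 over all regions called in both aclarubicin lists and 2.09 in the 1068 aclarubicin-only regions at or above a percentile of 50. Fragments and background rose together across the members, with a Spearman's rho of 0.864 in replicate 1 and 0.865 in replicate 2. The rule bounds the ratio of these quantities, so the relation is in part built in.

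**Figure D2:**
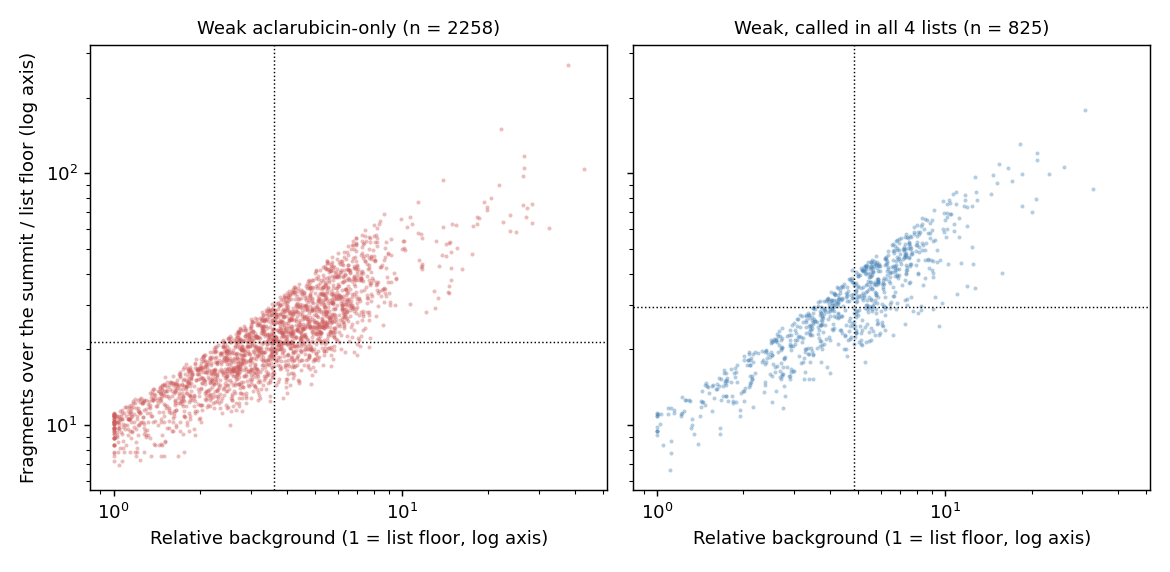
Fragments over the summit divided by the list floor (y axis, log) against local background relative to the floor (x axis, log), means of the 2 aclarubicin replicates, 1 point per region; dotted lines are medians. The 2258 members centre on a relative background of 3.61 and the 825 weak regions called in all 4 lists on 4.82, and both bands rise to the right.

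Sorted by background, the members ran from peaks of few fragments on a flat background to peaks of many fragments on a raised one. The 55 members at the floor had medians of 17 and 18 fragments and folds of 6.60 and 6.64. The 1172 members with a background above 2 and up to 5 times the floor had medians of 35 and 37 fragments and folds of 5.52 and 5.48. The 67 members above 10 times the floor had medians of 101 and 107 fragments and folds of 3.43 and 3.51. Their median mean percentile was 4.67, the lowest of the 5 bands. These 67 were 2.97% of the members, near the 3.88% of all regions called in both aclarubicin lists that passed 10 times the floor.

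Members were a smaller part of the weak regions where the background was high. At the floor they were 67.1% of the weak regions called in both aclarubicin lists (95% Wilson interval 56.3% to 76.3%), and 64.7% (62.5% to 66.9%) in the band from 2 to 5. The share was 56.1% (53.1% to 59.1%) from 5 to 10 and 49.3% (41.0% to 57.6%) above 10. Within each band above the floor, the weak regions called in all 4 lists had more fragments than the members. In the band from 5 to 10, for example, they had medians of 69 and 76 fragments, and the members 56 and 58. At the floor the medians were 17 and 19 against 17 and 18.

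Along the percentile scale, the members kept a near-constant fragment number while their background fell. The median number of fragments was 38.5 between percentiles 0 and 10 and 37.3 between 40 and 50, and the median relative background went from 5.64 to 2.47. In the weak regions called in all 4 lists, fragments went from 45.3 to 57.0 over the same bins and the background from 6.41 to 4.11. The gap in fragments between members and shared regions of the same fold rank was wider between 30 and 40, at 37 against 57.5, and between 40 and 50 than between 0 and 10.

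Peak width, which the rule did not use, was lower in the members than in the shared weak regions. The median width was 328 bp in replicate 1 and 342 bp in replicate 2 for the members, 364 and 376 bp for the weak regions called in all 4 lists, and 444 and 462 bp for the strong regions called in all 4. The difference between members and shared weak regions was 36 and 34 bp, and the replicates' medians for the members lay 14 bp apart. Weak regions with a peak in 1 daunorubicin list were closer to the members, at 335 and 354 bp. At equal fold rank the gap to the shared weak regions varied. As means of both replicates, the medians were 344.25 against 350 bp between percentiles 20 and 30, and 353 against 391 bp between 40 and 50. The width moved with the fragment number, and its own part was not tested. The widest members were chromosome 9, 137464993 to 137466327 (peaks of 1268 and 1292 bp), chromosome 5, 684410 to 685693 (1284 and 861 bp), and chromosome 22, 21342592 to 21343741 (1150 and 971 bp).

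Summits of the members lay farther apart at the median than those of the other classes of regions called in both aclarubicin lists. The median distance between the 2 summits was 24 bp (90th percentile 82 bp), against 21 bp in weak regions called in all 4 lists, 15 bp in the strong aclarubicin-only regions and 12 bp in the strong regions called in all 4. Within 50 bp lay 77.5% of the members' summit pairs, 84.4% of those of the shared weak regions and 96.5% of those of the strong shared regions. In 73 members the summits were over 150 bp apart. Summit spread among members was largest between percentiles 0 and 10, at a median of 39 bp, and was 21 bp between 40 and 50. At equal fold rank the weak regions called in all 4 lists were close to the members, at 37.5 and 19 bp in these bins. Between 10 and 20 the members' summits were the closer ones, at 29 against 33 bp, and between 30 and 40 both medians were 22 bp. The gap over all ranks was thus not present in each bin.

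Whether a weak aclarubicin peak was found again in the other aclarubicin library was read from that library's list. Its calls and ranks did not choose the regions below, but its intervals were part of the merging that set all region boundaries. A region with daunorubicin calls also spans their intervals, and the part of this in the shares was not tested. The Wilson intervals treat regions as independent and cover counting error only. Of the 3636 regions with a peak below percentile 50 in replicate 1 and no daunorubicin peak, 2240 had a peak in replicate 2 (61.6%, 95% Wilson interval 60.0% to 63.2%). Of the 969 with a peak in both daunorubicin lists, 859 did (88.6%, 86.5% to 90.5%). Starting from replicate 2, the shares were 61.3% (59.7% to 62.9%) and 86.1% (83.8% to 88.1%). The gap was present at equal rank. Between percentiles 40 and 50 of replicate 1, 80.6% of regions without and 93.1% of regions with both daunorubicin calls were found in replicate 2, and between 0 and 10 the shares were 41.5% and 73.2%. Regions without a daunorubicin call were thus found again less often in a second aclarubicin library in each of these bins, as well as in the same bins starting from replicate 2 (77.1% against 94.1%, and 39.2% against 65.9%). At equal fold rank the regions with both daunorubicin calls also had more fragments, as given above, and the part of fragment number in the gap was not tested.

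The lack of a call was read in the same way between the daunorubicin libraries. Of the 2585 weak regions called in both aclarubicin lists and not in daunorubicin replicate 1, 327 were called in daunorubicin replicate 2 (12.6%, 11.4% to 14.0%). Of the 1049 that replicate 1 did call, 825 were (78.6%, 76.1% to 81.0%). In the other direction, 9.02% (7.96% to 10.2%) of the 2482 regions not called in replicate 2 and 71.6% (68.9% to 74.1%) of the 1152 called there were called in replicate 1. Most weak regions lacked a call in either daunorubicin library taken alone. Of all 3634, 2585 had none in replicate 1 and 2482 had none in replicate 2. Where a call was missing in one library, it was mostly missing in the other as well. The rule used these calls, so this is a description. In the strong regions, 34.9% and 19.1% of those not called in one daunorubicin library were called in the other.

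A missing call has no deposited value, but under assumptions it gives an approximate upper limit. Any summit that reached the lowest listed p is taken to have been listed, and the local background to scale with the floor. The caller's threshold is not known, and the shortest listed peaks were 232 and 233 bp in the daunorubicin replicates. A short stretch of signal past that p could thus have gone unlisted, and the limit is no strict bound. With the aclarubicin background scaled to the floor of each daunorubicin library, a median of 19 fragments would have been needed to reach the lowest listed p in daunorubicin replicate 1 and 17 in replicate 2. At the same scale, the members' aclarubicin fragments had medians of 35.5 and 29.1. The limit, as a ratio to the aclarubicin fragments, therefore had a median of 0.549 for replicate 1 (quartiles 0.471 and 0.625) and 0.585 for replicate 2 (0.501 and 0.672). It was below 0.5 in 33.7% of the members for replicate 1 and 24.8% for replicate 2. For 2 members in replicate 1 and 7 in replicate 2 the limit was at or above 1, so that the missing call allows any lower level and also an equal one. In the strong aclarubicin-only regions the median limits were 0.351 and 0.376.

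**Figure D3:**
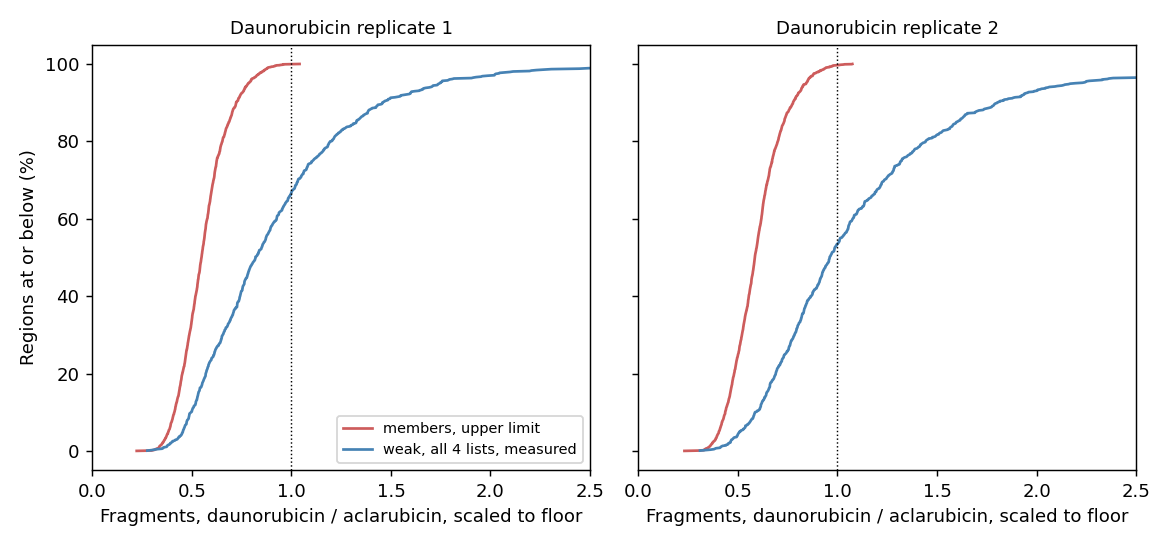
Cumulative share of regions (y axis, percent) by the ratio of daunorubicin to aclarubicin fragments, both scaled to the list floor (x axis), for each daunorubicin replicate. Red lines give the members' upper limits, with medians of 0.549 and 0.585, and blue lines the measured ratios of the weak regions called in all 4 lists, with medians of 0.820 and 0.961.

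Weak regions that were called in all 4 lists had measured ratios of 0.820 (quartiles 0.613 and 1.11) in daunorubicin replicate 1 and 0.961 (0.738 and 1.32) in replicate 2. Calling selects high ratios in this class, since a region below the limit would not be in it. The strong regions called in all 4 lists, which can fall further before a call is lost, had medians of 0.532 and 0.673. The background at the shared weak regions was itself lower under daunorubicin, with a median ratio of 0.728 in replicate 1 and 0.773 in replicate 2. With the background lowered by these ratios, a choice made after the data had been seen, the members' median limits were 0.458 and 0.508.

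Members lay on each of chromosomes 1 to 22 and X, and their density followed that of the aclarubicin regions as a whole. They were densest on the gene-rich chromosome 19, with 195 members or 3.30 per Mb, and sparsest on chromosome 13, with 15 members or 0.130 per Mb. All regions called in both aclarubicin lists were likewise densest on chromosome 19, at 12.0 per Mb, and sparsest on chromosome 13, at 0.712. Among weak regions, the share that were members ran from 56.0% on chromosome 16 (95% Wilson interval 49.1% to 62.7%) to 80.0% on chromosome 18 (24 of 30, 62.7% to 90.5%). The intervals of chromosomes 2 (70.4%, 63.3% to 76.6%) and 18 lay above the 62.1% of all weak regions, and those of the other chromosomes held it. These intervals treat regions as independent and were not adjusted for the number of chromosomes. No conclusion on a difference between chromosomes is drawn from them.

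On chromosome 22 the members had the highest median background of any chromosome. Their median relative background was 7.40, against 1.36 to 5.15 on the other chromosomes, and their median fold was 4.37, against 5.03 to 6.61. Of the 67 members above 10 times the floor, 37 lay on chromosome 22, 7 on chromosome 1 and 6 on chromosome 9. Over all regions called in both aclarubicin lists, the median on chromosome 22 was 4.48, below the 5.84 of chromosome 19, the 4.80 of chromosome 16 and the 4.51 of chromosome 17. Chromosome 22 held 3.29% of those regions, 3.90% of all members and 13.3% of the 316 members below a mean percentile of 10. Off chromosome 22, the members' median relative background was 3.58.

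**Figure D4:**
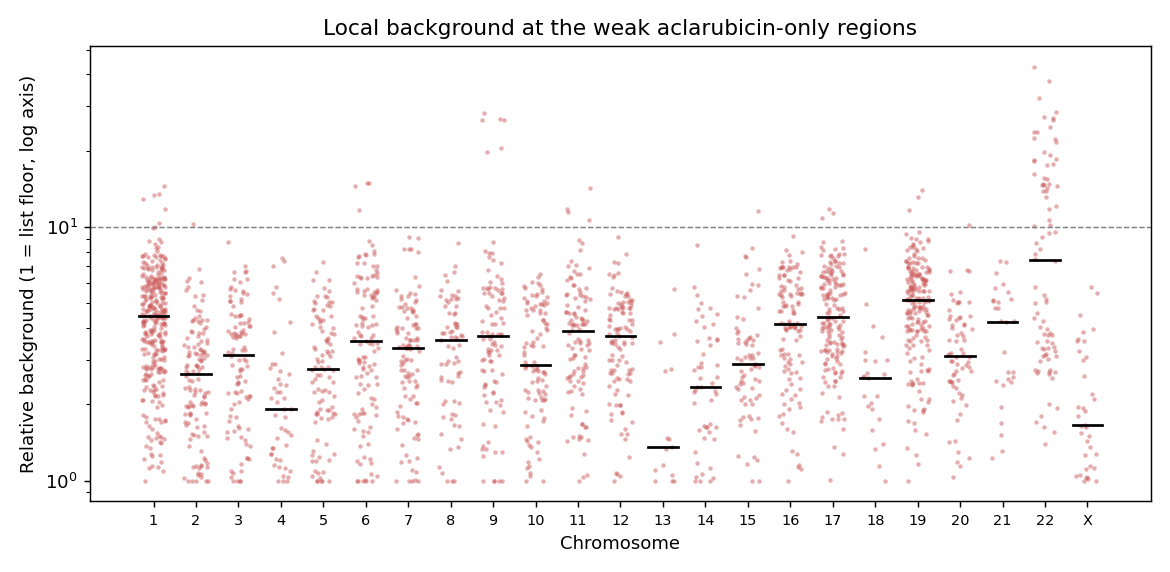
Local background of each member relative to the list floor (y axis, log; mean of the 2 aclarubicin replicates) by chromosome (x axis); black bars are medians and the dashed line marks 10 times the floor. Chromosome 22 splits into an upper and a lower group, with a median of 7.40 over both, and 6 members of chromosome 9 lie above the line.

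The highest backgrounds were concentrated in 1 stretch of chromosome 22 and 1 window of chromosome 9, which were picked after the values had been seen. In windows of 1 Mb with at least 10 regions called in both aclarubicin lists, the median background reached 10 times the floor in the 5 windows from 19000001 to 24000000 on chromosome 22, and in the window from 133000001 to 134000000 on chromosome 9. The stretch on chromosome 22 held 50 members, with median backgrounds of 15.1 and 14.7 times the floor in the 2 replicates, 88.5 and 89.5 fragments, and folds of 3.34 and 3.31. The 38 members on the rest of chromosome 22 had backgrounds of 3.22 and 3.16, fragments of 34 and 38.5, and folds of 5.71 and 5.73. In the window on chromosome 9, 4 members had backgrounds between 26.5 and 28.3 times the floor and medians of 183 and 178 fragments. K562 carries the Philadelphia translocation, which joins parts of chromosomes 9 and 22 in the BCR-ABL1 fusion, and is known for extra copies of that fusion. DNA copy number was not measured in these files, and its part in the background was not tested.

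The background of these stretches was raised under both drugs. At the 55 regions of the chromosome 22 stretch called in all 4 lists, it was 11.6 and 13.4 times the floor in the daunorubicin replicates and 16.7 times in the aclarubicin mean. In the same stretch, 50 of 90 weak regions were members (55.6%, 45.3% to 65.4%), against 38 of 61 on the rest of the chromosome (62.3%, 49.7% to 73.4%). These intervals overlap widely, but they treat neighbouring regions on a shared background as independent. The members' median percentile was 2.87 in the stretch and 29.4 on the rest, so the shares were taken at unlike ranks. No conclusion on a difference is drawn from them.

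The members of lowest rank and those with most fragments came from the same stretches. The lowest mean percentile was at chromosome 22, 22005275 to 22006212, with folds of 1.91 and 1.80 over 108 and 109 fragments. Next were chromosome 22, 19749573 to 19750161, with folds of 2.19 and 2.18 over 52 and 53 fragments, and chromosome 9, 133832162 to 133832590, with folds of 2.44 and 1.98 over 123 and 103 fragments. Most fragments were counted at chromosome 22, 21995727 to 21996642, with 482 and 484 fragments, a −log10 q of 239 and 219, and folds of only 7.47 and 6.65. A region holding a daunorubicin peak lay 796 bp from it. The next were chromosome 22, 20116526 to 20117196, with 251 and 288 fragments, and chromosome 9, 133785641 to 133786058, with 232 and 187. For contrast, the 3 members nearest to the median percentile, on chromosomes 3, 16 and 8, had between 31 and 53 fragments and folds between 5.21 and 5.77.

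Fewer of the members than of the shared weak regions had a close neighbour. Another region called in both aclarubicin lists lay within 10 kb of 20.6% of the members (95% Wilson interval 19.0% to 22.3%) and 30.2% of the weak regions called in all 4 lists (27.1% to 33.4%). The share was 12.0% in the strong aclarubicin-only regions and 19.0% over all regions called in both aclarubicin lists. Background moved with this measure, being lower in the members than in the shared weak regions, and its part was not tested. With members ranked by −log10 p in place of fold, 15.9% had such a neighbour.

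The distance from the members to the nearest other region holding a daunorubicin peak was near that of the aclarubicin regions in general. Its median was 44425.5 bp for the members and 48799 bp over all regions called in both aclarubicin lists, and 17.5% (16.0% to 19.2%) and 16.7% (15.9% to 17.5%) had one within 10 kb. The strong aclarubicin-only regions lay farther away, with a median of 80356.5 bp and 11.1% within 10 kb. For the weak regions called in all 4 lists, which hold such a peak themselves, the nearest other one was at a median of 27268 bp, and 25.2% had it within 10 kb. Within 500 bp, 25 members had one. The nearest were chromosome 17, 40730204 to 40730594, at 12 bp, chromosome 22, 23243733 to 23244591, at 27 bp, and chromosome 1, 1571724 to 1572279, at 80 bp. At these 3, the call that separates members from shared regions thus rests on intervals that lay beside each other without touching. The farthest were chromosome 18, 68101138 to 68101452, at 3606474 bp, chromosome 9, 11618587 to 11618898, at 2809841 bp, and chromosome 3, 28283001 to 28283426, at 2593141 bp. These 3 had between 15 and 24 fragments over the summit.

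Close to the chromosome ends, within 2 Mb, lay 10.1% of the members (8.88% to 11.4%), 8.36% of the weak regions called in all 4 lists (6.66% to 10.5%) and 7.23% of all regions called in both aclarubicin lists (6.71% to 7.79%). The interval of the members overlapped that of the shared weak regions.

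Within 10 kb of another member lay 7.75% of the members (6.72% to 8.93%). A member lay within 10 kb of 5.75% of all regions called in both aclarubicin lists (5.28% to 6.25%) and 8.61% of the weak regions called in all 4 lists (6.88% to 10.7%). Taking members within 10 kb of the next as a group, 2083 stood alone, 74 groups held 2, 7 held 3 and 1 held 6. The group of 6 lay on chromosome 8, 47314965 to 47346891, and was part of a longer stretch, delimited after its values were seen. From 47015431 to 47346891, over 331 kb, all 14 regions called in both aclarubicin lists were members. Aclarubicin replicates 1 and 2 listed 21 and 15 peaks there, and both daunorubicin libraries listed 0. The nearest region with a daunorubicin peak was 482 kb from the stretch.

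The peaks of this stretch were ordinary in strength for members. Their folds ran from 3.61 to 8.54 (median 5.30) in replicate 1 and from 4.17 to 6.79 (median 4.89) in replicate 2. Fragments had medians of 35.5 and 41.5, and the background medians of 3.81 and 3.86 times the floor. Counted along each chromosome, with a break at any region that held a daunorubicin peak or was called in both aclarubicin lists without being a member, the stretch and 1 member 4.02 Mb before it formed a run of 15 members. Whether peaks could be listed along the 4.02 Mb between them, where assembly gaps may lie, was not examined. The run of 15 is therefore not read as 1 continuous block. The next longest runs held 6 members, on chromosome 6, 27774689 to 28499833, and chromosome 10, 50209323 to 50747339. The limits on the daunorubicin signal in the run of 15 had medians of 0.556 and 0.587, near the 0.549 and 0.585 of all members.

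**Figure D5:**
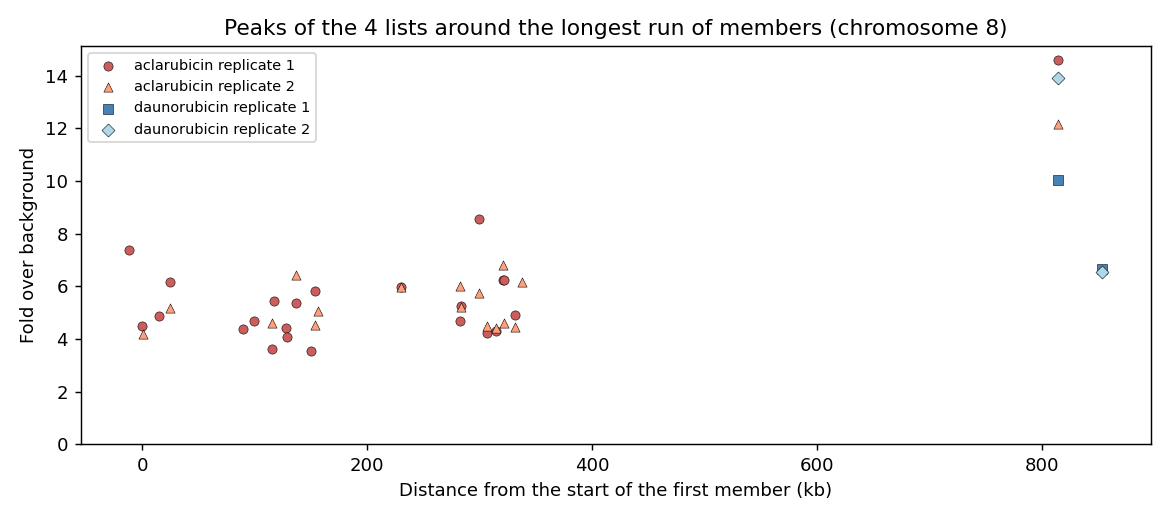
Fold over background (y axis) of each peak of the 4 lists by its distance in kb from the first of the 14 members on chromosome 8 (x axis). Aclarubicin peaks fill the 331 kb at the left at folds of 3.53 to 8.54, and daunorubicin peaks are listed there 0 times. At the right, a peak near 814 kb is listed in all 4 libraries, and 1 near 853 kb only in both daunorubicin libraries (folds 6.67 and 6.54).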

How the data were processed

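CTCF ChIP-seq peaks of 4 libraries were available as deposited lists in the 10-column narrowPeak format, made for each library separately. Per the submitters' processing notes, Bowtie2, Picard and bedtools were used with GRCh37 (hg19). The peak caller, its threshold and any control library are not given in the sources used here. The deposited fold is a ratio to local background, and each peak carries deposited −log10 values of p and q made by the authors. The deposited score was not used. These values describe and rank peaks within a list.

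Drug and replicate were taken from the titles. Intervals sharing 1 bp were merged on chromosomes 1 to 22 and X. A region takes its peak of highest fold per list, and percentiles are over all peaks of a list. Fragments k and background λ were solved from fold = (k + 1)/(λ + 1) and a Poisson p of more than k. In 100% of peaks, k came out whole with a tolerance of 0.02. Relative background is λ over the lowest λ of its list. Upper limits use the lowest −log10 p of each daunorubicin list. Distances are edge to edge. Chromosome lengths of GRCh37 were entered by hand, and 0 peaks ended past them. Named regions are, per list of criteria, the 3 extreme members by percentile, replicate difference, width, fragments and distance to a daunorubicin region, 3 at the median, 3 just outside the threshold, and the 2 largest groups. Ties among named regions were broken by chromosome and start. Members, lists of values and criteria were chosen with earlier results of these data known. The planned motif and gene-position results were not run, since no GRCh37 sequence was used here. The calculations were tested on simulated data. Python 3.11.15, numpy 2.4.6, pandas 2.3.3, scipy 1.17.1, matplotlib 3.10.9 and bedtools 2.31.1 were used.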

Additional observations from a re-analysis of the deposited data

How the results depend on the processing

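The member count lay between 2050 and 2277 under thresholds on −log10 q of 5 and 10, a reciprocal overlap of 50%, summits within 100 bp and percentiles of −log10 p. The share of weak regions then lay between 61.3% and 62.6%. By −log10 p, 1869 of the members (82.8%) stayed members, and these were 83.0% of the members by −log10 p. Lists of equal length, ranked anew, gave 835 members (34.6% of the regions weak in those lists), and a mean percentile below 25 gave 1032, by construction. Leaving out 1 library gave 2482 to 3644 members and shares of 67.8% to 71.2%, since fewer calls then define the class. Ranking by −log10 p gave a median width of 326 bp, an aclarubicin neighbour for 15.9%, a daunorubicin neighbour for 13.5% and a background above the floor for 90.7%, against 96.0% when ranked by fold. A mean percentile below 25 gave a width of 325.5 bp, a summit distance of 29 bp, neighbours for 26.2% (aclarubicin) and 20.5% (daunorubicin), 12.1% near chromosome ends and 99.3% above the floor. Their cause was not tested. Within 5 kb, 9.83% had an aclarubicin and 8.90% a daunorubicin neighbour, and within 20 kb, 37.2% and 31.8%. Within 5 Mb of an end lay 18.6%. Leaving out a daunorubicin library gave 14.8% to 15.9% with a daunorubicin neighbour. No paired analysis was possible because these results come from calls, with no test, and the members have no daunorubicin value. Regions without a call have no value, so depth and threshold limit each statement to called peaks.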

Other observations

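After the group of 6, 7 groups of 3 members tied in size. The first of these by position lay on chromosome 1, 144991976 to 144994714, with 3 members within 2739 bp. Their folds were 2.63 and 2.50, 2.46 and 2.24, and 3.34 and 2.86 in the 2 aclarubicin replicates, on a background of 12.9 to 13.4 times the floor. Of the 7 runs of 5 members without a daunorubicin peak between them, the first by position lay on chromosome 5, 179104522 to 179248774. Its folds were 3.92 to 5.50 in replicate 1 and 3.63 to 5.76 in replicate 2. The nearest region with a daunorubicin peak was 268.7 kb away. For the longer runs it was closer, at 45.4 kb on chromosome 8, 10.4 kb on chromosome 6 and 19.6 kb on chromosome 10. Of the runs of members along the chromosomes, 1323 held a single member.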
